A study of Caenorhabditis elegans with 51 samples.

Results

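The genes described here are the cuticle collagen genes of Caenorhabditis elegans that carry a col- symbol followed by a number. Every row of the gene table with such a symbol was taken, which gave 158 genes on 161 rows, out of 20202 genes on 20938 rows. In the table, small RNA of young adults is given per gene as RPKM, that is, reads scaled by the length of the gene model and by the library total. Of the 158 genes, 31 had an RPKM of 1 or more in 2 or more libraries and could be tested. A further 69 lay above 0 without reaching that level, and 58 were listed at 0 in all 6 libraries. The rule used the symbol alone and no measured value.

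The libraries hold small RNA precipitated with the Argonaute HRDE-1, small RNA precipitated with the Argonaute CSR-1 (small RNA immunoprecipitation, sRIP) and the input, with 2 libraries of each. All 6 came from young adults of 1 strain, whose genotype is given as Cer3(red20), SF-HRDE-1 and c-myc-CSR-1. All of them therefore carried a fragment of oma-1, an oocyte maturation gene, inside the retrotransposon Cer3, and tagged forms of both Argonautes. The labels name no precipitation from an untagged strain, so input RNA carried into a precipitate cannot be told apart from RNA bound by the protein. Among the 51 samples of the series, the other 45 were not analysed here.

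Cuticle collagens are secreted by the epidermis and cross-linked into the cuticle, the exoskeleton that the worm rebuilds at every moult. The worm has a large family of such genes, most of them named only by number, and many are switched on in brief pulses during a moult. Small RNAs against a gene are a separate quantity from its messenger RNA. Argonautes bind them, HRDE-1 in germline nuclei in heritable silencing and CSR-1 mainly against genes expressed in the germline.

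Library totals deduced from the RPKM values were 4872549 and 3248065 reads for HRDE-1, 4992358 and 2991634 for CSR-1 and 2728020 and 2104162 for the input. For a collagen gene of 939 bases, the median length of the tested ones, 1 RPKM stood for 1.98 to 4.69 reads, and 3 reads for 0.640 to 1.52 RPKM. The HRDE-1 replicates differed beyond sampling noise, with a chi-square of 1.91 per degree of freedom, and the CSR-1 replicates slightly, with 1.06. For the input replicates it was 0.982 over 9268 genes, no more than sampling noise gives, so this pair was counted as 1 sample, although the titles give its libraries different codes. With 2 input samples, 18 collagen genes and not 20 were called lower with CSR-1, without col-125 and col-187. The library codes share 1 prefix among the replicate 1 libraries and another among those of replicate 2, and the labels do not say what it stands for. Since the labels do not say whether replicates were grown apart, the spread behind each p-value may be only technical.

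Reads on the 158 collagen genes came to 785 and 830 RPM, reads scaled to the library total, in HRDE-1 sRIP, to 124 and 131 in CSR-1 sRIP and to 837 and 842 in the input. Both CSR-1 libraries lay far below all of the others, and the HRDE-1 libraries lay slightly below the input. Of the reads on gene models, the collagen genes took 0.163% and 0.165% in HRDE-1 sRIP, 0.0318% and 0.0312% in CSR-1 sRIP and 0.169% and 0.164% in the input.

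**Figure D1:**
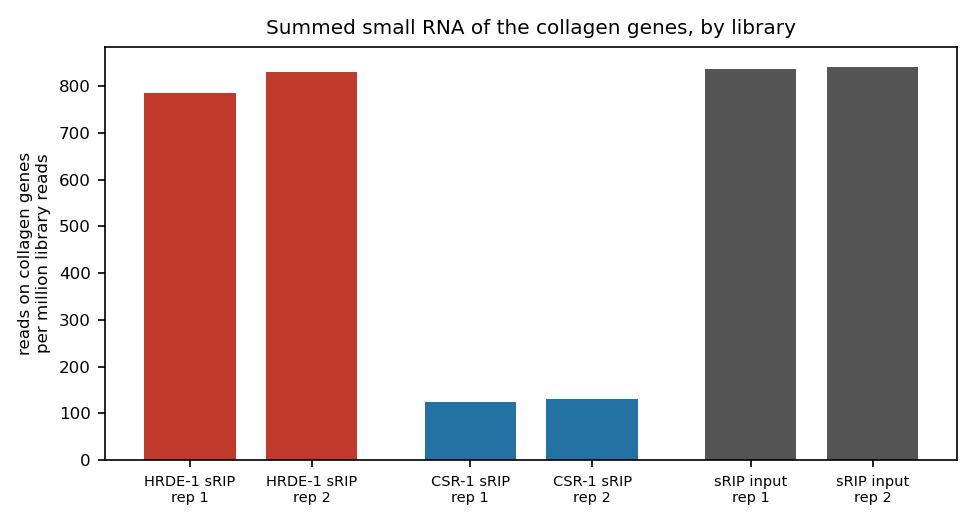
Reads on all 158 collagen genes as RPM (vertical axis, from 0), with 1 bar per library, for HRDE-1 sRIP, CSR-1 sRIP and the input. The HRDE-1 bars stand at 785 and 830, the CSR-1 bars at 124 and 131 and the input bars at 837 and 842.

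A few genes held most of these reads. Col-71 alone took 39.4% and 41.01% of the collagen reads in HRDE-1 sRIP, 49.5% and 50.9% in CSR-1 sRIP and 43.3% and 41.8% in the input. The leading 5 genes took between 79.5% and 87.5% in every library. By mean RPKM over the 6 libraries, 9 genes stood at 10 or more, 11 between 1 and 10 and 80 above 0 and under 1. In the input, col-71 ranked 180th and col-111 ranked 444th of 20202 genes. Only 5 collagen genes had more than 10 reads in every library.

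Col-71, the gene with the highest level, had 259 and 285 RPKM in HRDE-1 sRIP, 51.5 and 55.7 RPKM in CSR-1 sRIP and 303 and 295 RPKM in the input. Col-111 had 124 and 141 RPKM in HRDE-1 sRIP, 21.9 and 24.6 RPKM in CSR-1 sRIP and 159 and 164 RPKM in the input. In both genes the CSR-1 libraries were lowest and the HRDE-1 libraries lay just below the input, with no overlap between the groups. Col-38 had 85.8 and 91.1 RPKM in HRDE-1 sRIP, 11.5 and 10.5 RPKM in CSR-1 sRIP and 67.7 and 62.1 RPKM in the input. Its order differed from that of col-71, since the HRDE-1 libraries were above the input.

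Col-157 had 62.0 and 72.2 RPKM in HRDE-1 sRIP, 7.79 and 8.54 RPKM in CSR-1 sRIP and 72.9 and 64.95 RPKM in the input. Col-45 had 53.5 and 50.1 RPKM in HRDE-1 sRIP, 4.71 and 5.57 RPKM in CSR-1 sRIP and 47.4 and 59.6 RPKM in the input. In these 2 genes the HRDE-1 libraries overlapped the input, and the CSR-1 libraries were far below both. Col-60 had 27.8 and 25.1 RPKM in HRDE-1 sRIP, 1.10 and 1.84 RPKM in CSR-1 sRIP and 18.1 and 19.3 RPKM in the input. Here the HRDE-1 libraries were highest, and the CSR-1 values rested on 5 reads in each library.

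Col-154 and col-155, neighbours on chromosome V, had similar levels. Col-154 had 21.1 and 21.0 RPKM in HRDE-1 sRIP, 2.94 and 2.80 RPKM in CSR-1 sRIP and 22.6 and 23.4 RPKM in the input. Col-155 had 18.98 and 19.8 RPKM in HRDE-1 sRIP, 2.62 and 2.91 RPKM in CSR-1 sRIP and 19.9 and 21.2 RPKM in the input. In both, the HRDE-1 libraries sat just under the input. Col-97 had 15.8 and 13.8 RPKM in HRDE-1 sRIP, 1.86 and 1.13 RPKM in CSR-1 sRIP and 12.1 and 15.7 RPKM in the input, so that HRDE-1 and input overlapped.

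**Figure D2:**
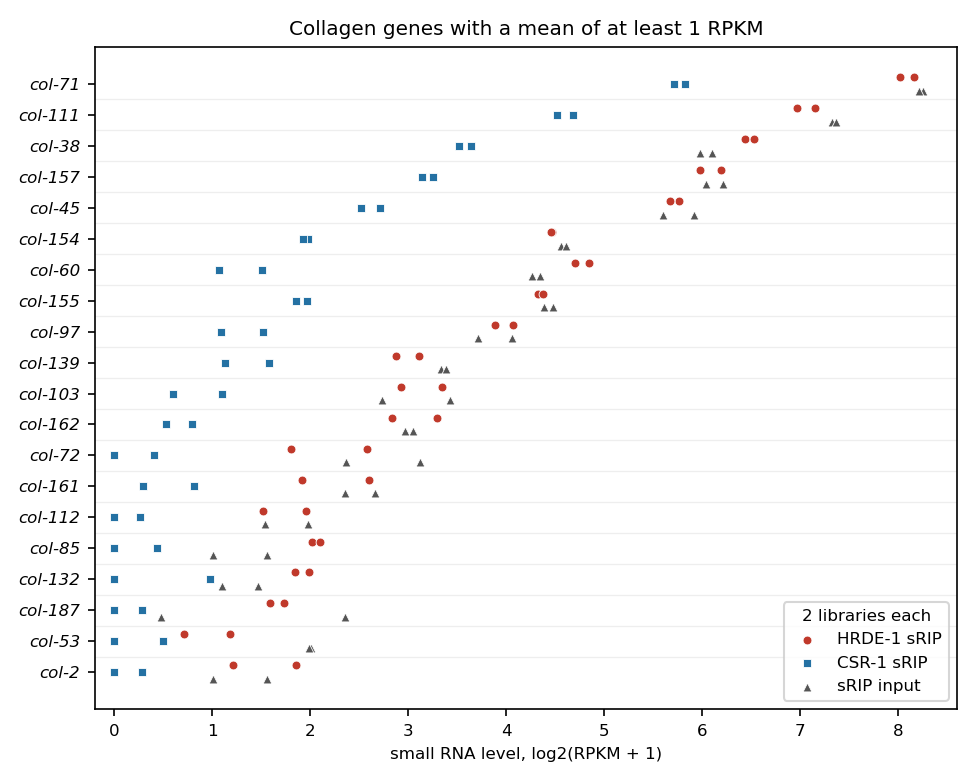
Small RNA level of the 20 collagen genes with a mean of at least 1 RPKM, as log2(RPKM + 1) on the horizontal axis, with 1 point per library for HRDE-1 sRIP (circles), CSR-1 sRIP (squares) and input (triangles). The CSR-1 squares lie left of the HRDE-1 and input symbols in most rows, while circles and triangles lie close together or overlap.

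The comparison of CSR-1 sRIP with the input asks which genes' small RNA was enriched or depleted with CSR-1. Collagen small RNA was lower with CSR-1: of the 31 genes tested, 20 fell and 0 rose. A call needed 2 things, a limma adjusted p under 0.05 and, on the scale of log2(RPKM + 1), a change of 1 or more in either direction. Over all 10908 genes tested, 36.8% were called lower in this comparison and 7.13% higher. The median log2 fold change of the tested collagen genes was −1.65, against −0.54 over all genes tested, and it was −1.56 within replicate 1 and −1.80 within replicate 2. Both CSR-1 libraries lay below both input libraries in 27 of the 31 genes, as in 53.9% of all genes tested. In 11 of the 31 genes a CSR-1 library reached 1 RPKM, and the others passed the filter on low values through HRDE-1 or input libraries. For those others the filter favoured a lower value with CSR-1, so their calls are given as a description. The counts of 20 and 27 and the median of −1.65 rest partly on them. Over all genes, 778 were called higher and 4019 lower as deposited, against 2540 and 2969 with library medians centred, where 17 collagen genes were lower and 0 higher. With each library's median ratio to input scaled to 1, the calls over all genes were 1776 higher and 3692 lower, and the collagen calls were the same 20 genes.

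All 9 collagen genes with a mean of 10 RPKM or more fell with CSR-1, and 33.0% of all genes tested at that level did. Their pooled CSR-1 reads, scaled to library totals, were 7.38% to 17.7% of the input reads. On the log2(RPKM + 1) scale col-45 had the largest fall, with 5.14 ± 0.606 RPKM in CSR-1 sRIP (SD, n = 2) against 53.5 RPKM in the input (log2 fold change −3.15 ± 0.14 SE, limma adjusted p = 0.000296). Col-60 followed at −3.02 ± 0.25 and col-157 at −2.93 ± 0.14. By pooled reads the ratio to the input was lower for col-60 than for col-45, with intervals that overlap. Col-111, col-154, col-97, col-155, col-38 and col-71 had −2.75, −2.63, −2.59, −2.52, −2.46 and −2.46. These 9 genes were called in every alternative that was run.

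Among the collagen genes with a mean of 1 to 10 RPKM, 10 of 11 fell with CSR-1, and 48.9% of all genes tested at that level did. Col-72 had 1 read in CSR-1 sRIP against 17 in the input, a read ratio of 0.0356 (95% interval 0.000852 to 0.227). Col-2, which is known from dauer larvae, the resistant larval form, had 1 read in CSR-1 sRIP against 7 in the input (ratio 0.0865, interval 0.00192 to 0.673). Of the 20 calls, 8 rested on at most 3 CSR-1 reads. Among collagen genes with a mean under 1 RPKM, 1 of 11 was called, col-125, against 17.9% of all genes tested at that level. Col-125 had 0 reads in CSR-1 sRIP against 5 in the input. With CSR-1 sRIP set to a floor of 3 reads this is 2.75-fold lower, a value that leaves out the counting error of the 5 reads. Intervals cover counting error only, since reads are not independent molecules.

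The size of the fall varied between the collagen genes beyond counting error. The pooled read ratio of CSR-1 to input was 0.177 for col-71 (95% interval 0.160 to 0.196), and 0.142 for col-111 (0.120 to 0.167). It was 0.0954 for col-45 (0.0669 to 0.133) and 0.0738 for col-60 (0.0341 to 0.143). The intervals of col-45 and col-60 lay below that of col-71, the gene with the most reads. Without CSR-1 replicate 2, 14 genes fell, and col-72, col-2 and col-125 were among those no longer called.

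The comparison of HRDE-1 sRIP with the input asks the same for HRDE-1. Of the 31 collagen genes, 2 were called higher, 0 lower and 29 were not called. Over all genes tested, 7.15% were called higher and 10.3% lower, so the count of 2 is near the background. Both of these genes, col-46 and col-66, passed the filter on low values through the HRDE-1 libraries alone, which fixed their direction, and their calls support no rise. The median log2 fold change of the tested collagen genes was 0.06, against −0.03 over all genes tested, with 17 genes over 0 and 14 under it. Both HRDE-1 libraries lay above both input libraries in 9 of the 31 genes, col-46 and col-66 included, and below both in 6, and the libraries overlapped in 16. Over all genes tested these shares were 37.8% above and 41.7% below.

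The direction of small differences depended on the scale. With library medians centred, the median over all genes tested was 0.35 and not −0.03, that of the collagen genes was 0.44 and the collagen calls were 4 higher and 0 lower. The split over all genes then moved to 2254 higher and 333 lower, against 780 and 1124 as deposited. With each library's median ratio to input scaled to 1, the split was 1165 higher and 720 lower, and the collagen calls were the same 2 genes.

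Both genes called higher with HRDE-1 had few reads, and their values are given as a description. Col-46 had 1.58 and 2.37 RPKM in HRDE-1 sRIP, 0 in both CSR-1 libraries and 0.403 and 0 RPKM in the input. These values are 14 reads against 1 in the input, a ratio of 8.33 (95% interval 1.27 to 352). Col-66, annotated as a pseudogene, had 1.28 and 1.45 RPKM in HRDE-1 sRIP and 0 in all CSR-1 and input libraries. It had 7 HRDE-1 reads. With the input set to a floor of 3 reads this is 1.39-fold higher, a value that leaves out the counting error of the 7 reads.

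Without CSR-1 replicate 1 or without CSR-1 replicate 2, limma called 0 of the 10908 genes in HRDE-1 against input in either direction, col-46 and col-66 included, with 5 and 4 collagen genes at an unadjusted p under 0.05. With voom on the deduced reads both were called, and without input replicate 1 the count was 4, with col-68 and col-85.

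Among the 9 genes with a mean of 10 RPKM or more, 0 were called and the HRDE-1 to input log2 fold changes ran between −0.29 for col-111 and 0.47 for col-60. Col-38 passed the adjusted p but not the fold, at 88.4 ± 3.77 RPKM in HRDE-1 sRIP (SD, n = 2) against 64.9 RPKM in the input (log2 fold change 0.44 ± 0.11 SE, limma adjusted p = 0.0343). Its pooled read ratio was 1.35 (interval 1.17 to 1.55). Col-111 had a ratio of 0.811 (0.739 to 0.890) and col-71 of 0.900 (0.847 to 0.957), neither of which passed the limma test (adjusted p = 0.150 and 0.474). With library medians centred, col-71 stood at 0.25 and col-111 at 0.10 on the log2 scale. Col-53 had 1.27 and 0.637 RPKM in HRDE-1 sRIP against 3.04 and 2.95 RPKM in the input, at a log2 fold change of −1.05 (limma adjusted p = 0.0573), and was called lower when the input libraries entered as 2 samples; it is named after its values were seen.

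Set directly against each other, 24 of the 31 collagen genes were called higher in HRDE-1 sRIP than in CSR-1 sRIP, and 0 lower. Col-46 and col-66, which entered the test through HRDE-1 alone, are among the 24. A CSR-1 library reached 1 RPKM in only 11 of the 31 genes. The others passed the filter through HRDE-1 or input libraries, which favoured a lower CSR-1 value. The counts and the median given here therefore rest partly on the filter. All 9 genes with a mean of 10 RPKM or more were called higher, where 34.3% of all genes tested at that level were. At a mean of 1 to 10 RPKM it was 10 of 11 genes, beside 61.7% of all genes tested. Under 1 RPKM it was 5 of 11, beside 42.0%. Over all genes tested, 43.7% were called higher with HRDE-1 and 26.6% lower. The median log2 fold change was 1.61 for the collagen genes, or 1.63 with 5 genes at 0 in CSR-1 set to their bound, against 0.60 over all genes tested. Both HRDE-1 libraries lay above both CSR-1 libraries in 30 of the 31 genes, as in 53.7% of all genes tested. This comparison shares its libraries with the other two, so the 3 sets of calls are not separate evidence.

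Col-60 had the largest difference on the log2(RPKM + 1) scale, with 26.4 ± 1.91 RPKM in HRDE-1 sRIP against 1.47 ± 0.521 RPKM in CSR-1 sRIP (SD, n = 2 each), a log2 fold change of 3.49 ± 0.20 SE (limma adjusted p = 0.000100). Col-45 followed at 3.11, then col-38 at 2.90, col-157 at 2.89, col-97 at 2.67, col-154 at 2.51, col-111 at 2.46 and col-155 at 2.44. Col-71, first by level, had a smaller difference of 2.32 ± 0.12. As pooled reads scaled to library totals, the HRDE-1 to CSR-1 ratio was 5.08 for col-71 (interval 4.61 to 5.60) and 19.4 for col-60 (10.3 to 41.02), and these intervals do not overlap.

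**Figure D3:**
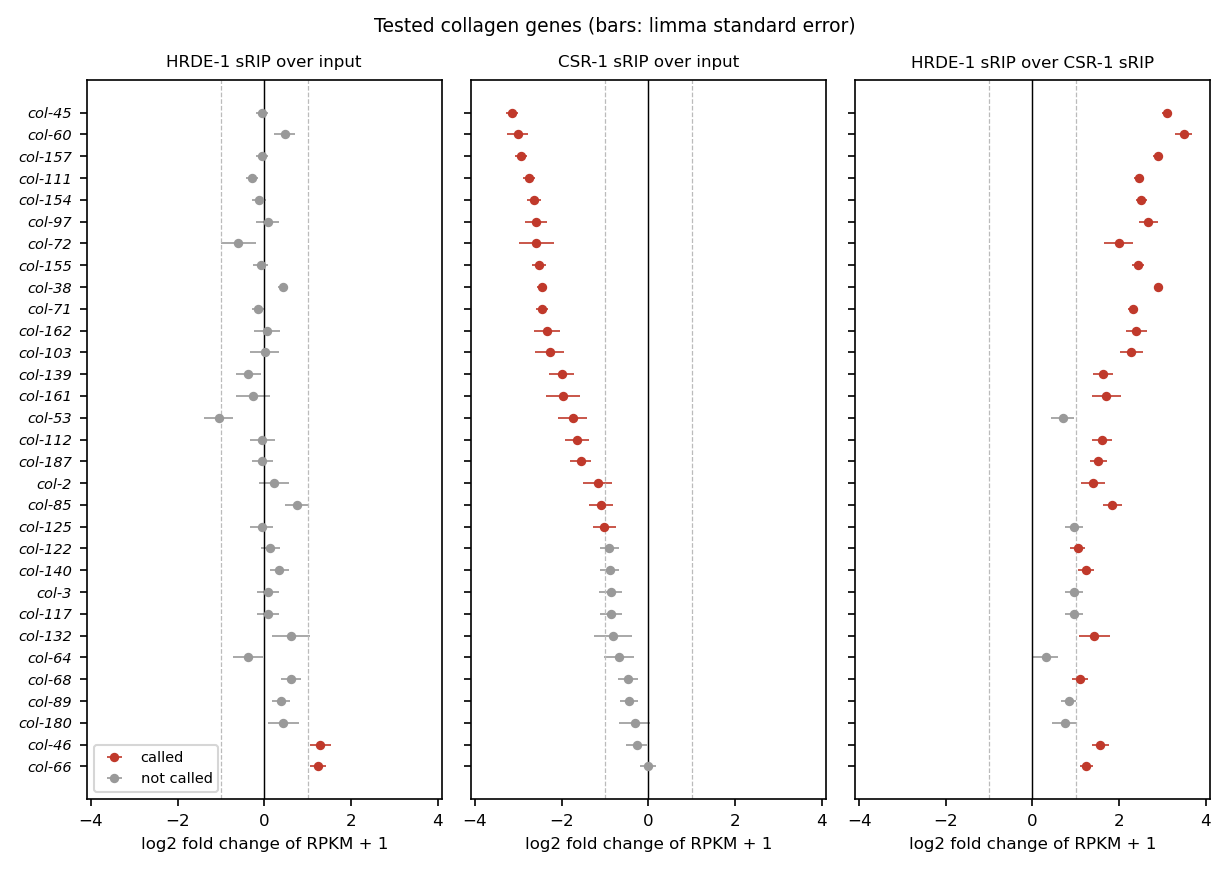
Log2 fold change of RPKM + 1 for the 31 tested collagen genes (rows), with limma standard errors as bars, in HRDE-1 sRIP over input, CSR-1 sRIP over input and HRDE-1 sRIP over CSR-1 sRIP. Called genes are red (2, 20 and 24 in these panels), and the dashed lines mark a log2 fold change of 1 in each direction.

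**Figure D4:**
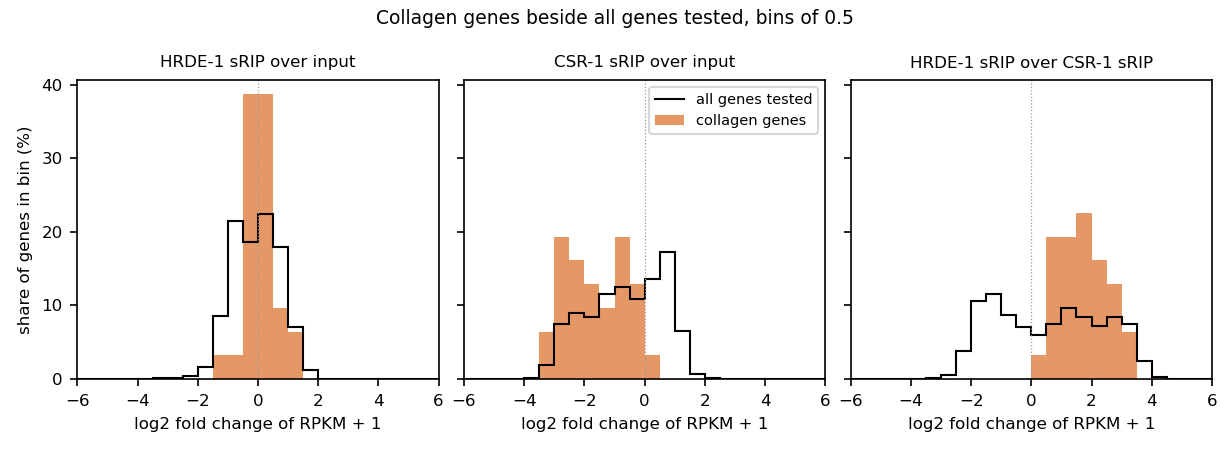
Share of genes (vertical axis, percent) in bins of 0.5 of the log2 fold change of RPKM + 1, for the 31 tested collagen genes (bars) and all 10908 genes tested (line), in the same 3 comparisons. In CSR-1 sRIP over input, all genes spread over both sides of 0 with a median of −0.54, and the collagen genes lie at or below 0 with a median of −1.65.

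Most collagen genes had little or no small RNA. For such levels in whole animals, few cells with this RNA and little of it per cell cannot be told apart. An RPKM above 0 was found for 75 and 70 of the 158 genes in HRDE-1 sRIP, for 38 and 23 in CSR-1 sRIP and for 63 and 53 in the input. The 127 genes that were not tested summed to 21.8 and 20.01 RPM in HRDE-1 sRIP, to 3.81 and 2.01 in CSR-1 sRIP and to 16.9 and 17.1 in the input. Summed over these weakly covered genes, the CSR-1 libraries were thus also lowest. The filter divided genes of nearly equal level: by their second highest library, col-64 with 1.11 RPKM and col-68 with 1.13 RPKM were just inside, and col-63 with 0.901 RPKM and col-76 with 0.895 RPKM were just outside.

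Of 6 collagen genes named for a known stage or function, col-2 was tested and 5 were not. Col-19, a marker of the adult cuticle, and col-13 were listed at 0 in all 6 libraries. Col-10 had 2 and 1 reads in HRDE-1 sRIP and 0 in all other libraries. Col-120 had 1 read in HRDE-1 replicate 2 and 1 in input replicate 1. Col-99, which codes for a transmembrane collagen, had 1 read in HRDE-1 replicate 2 and 1 in CSR-1 replicate 1. No comparison could be made for these 5 genes at this depth. Col-2 had 1.31 and 2.63 RPKM in HRDE-1 sRIP, 0.214 and 0 RPKM in CSR-1 sRIP and 1.95 and 1.01 RPKM in the input, so that HRDE-1 and input overlapped.

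Some collagen genes had equal deduced reads in every library. Col-3 and col-117, neighbours on chromosome IV, had the same deduced number of reads in each library, 11 in all. Col-7, col-62 and col-114 shared a pattern of 9 reads in all, and col-34, col-95 and col-96 one of 5 reads. How the authors counted reads that match several genes is not given in the sources used here, so the values of these genes are uncertain. Each set may count the same reads more than once, but numbers this small can also be equal without shared reads. Which of these holds was not tested.

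In the Ensembl annotation of WBcel235, col-71 (model Y49F6B.10) lies on chromosome II from 3500077 to 3502570 on the minus strand, and col-111 (F29B9.9) on chromosome IV from 4655791 to 4657974 on the minus strand. The build used by the authors is not given in the sources used here. Exons of 13 of the 31 tested collagen genes overlap an exon of another annotated gene. For col-71 the overlap is 105 bases with the noncoding gene Y49F6B.15, for col-111 it is 60 bases with psr-1 and for col-46 it is 259 bases with col-47, each on the opposite strand. The strand that was counted is not stated, so reads from overlapping genes cannot be told apart. Col-47 itself had 1 read in HRDE-1 replicate 1, 1 in CSR-1 replicate 2 and 1 in input replicate 2.

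The tested collagen genes were spread over all chromosomes. Chromosome IV held 41 collagen genes, of which 9 were tested, chromosome V 30 and 7, chromosome II 25 and 5, chromosome I 22 and 6 and chromosome III 12 and 2. On the X chromosome, 2 of 28 were tested (7.14%), where 43.5% of all its genes were. On every chromosome the collagen genes passed the filter less often than all genes, with 16.7% to 27.3% of them tested on the autosomes against 37.6% to 73.3% of all genes; the difference was not tested.

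Other genes of the cuticle were called lower with CSR-1 as well, where 36.8% of all genes tested were. Of 19 cuticle collagens named for mutant shapes, 7 were listed at 0 and 3 were tested, and all 3 fell with CSR-1. These 3 stayed under 1 RPKM in both CSR-1 libraries, so the filter favoured that direction. Dpy-10, known from dumpy and roller mutants, had 12.6 and 10.6 RPKM in HRDE-1 sRIP, 0.629 and 0 RPKM in CSR-1 sRIP and 5.53 and 5.08 RPKM in the input. It rested on 5 CSR-1 reads against 41 in the input (log2 fold change −2.30, limma adjusted p = 0.00495). An exon of dpy-10 shares 269 bases with one of T14B4.19, a protein-coding gene on the same strand, and reads there cannot be told apart. Dpy-13 and sqt-3, with 1 CSR-1 read each against 13 and 14 in the input, were at −1.77 and −1.68. With HRDE-1 these 3 genes were at 1.00, 0.76 and 0.23 and none was called. Against CSR-1 sRIP, HRDE-1 sRIP was higher for all 3, at 3.30 for dpy-10, 2.53 for dpy-13 and 1.91 for sqt-3. The filter favoured this direction too, and 43.7% of all genes tested were called higher there.

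Of 11 genes for collagen modification and processing, 7 were tested, and 4 fell with CSR-1 and 0 rose, beside 36.8% and 7.13% of all genes tested. Dpy-31, a protease that trims the ends of procollagens, had 215 and 252 RPKM in HRDE-1 sRIP, 28.7 and 33.9 RPKM in CSR-1 sRIP and 208 and 228 RPKM in the input. Its CSR-1 libraries were far below, at a log2 fold change of −2.76 ± 0.17 SE (limma adjusted p = 0.000413), and its HRDE-1 and input libraries overlapped. Bli-3, a dual oxidase that cross-links collagens, had 15.8 and 15.6 RPKM in HRDE-1 sRIP, 1.39 and 1.23 RPKM in CSR-1 sRIP and 7.54 and 8.34 RPKM in the input, and fell with CSR-1 (−1.95). Its HRDE-1 libraries were above the input at 0.90 (limma adjusted p = 0.0235), under the fold needed for a call. Bli-4, a proprotein convertase, was at −1.34 and dpy-11, a thioredoxin-like protein, at −1.06. The list's median was −1.06 in CSR-1 sRIP over input and 0.10 in HRDE-1 sRIP over input, with 0 of the 7 called in the second. Against CSR-1 sRIP, 3 of the 7 were higher in HRDE-1 sRIP, where 43.7% of all genes tested were, dpy-31 (2.86), bli-3 (2.86) and dpy-11 (1.21).

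Of 5 cuticlins, genes for other cuticle proteins, cut-1 alone was tested and fell with CSR-1 (−1.46, limma adjusted p = 0.0234), with 0.978 and 0.466 RPKM in CSR-1 sRIP against 3.07 and 4.31 RPKM in the input. With HRDE-1 it was at −0.13, not called, and HRDE-1 sRIP was higher than CSR-1 sRIP (1.33). Of 11 regulators of epidermis and moulting, 6 were tested and 3 fell with CSR-1, beside 36.8% of all genes tested. Lin-42, the worm's period gene, had 0.862 and 1.62 RPKM in HRDE-1 sRIP, 2.31 and 1.40 RPKM in CSR-1 sRIP and 15.02 and 13.5 RPKM in the input. Both precipitates lay below the input, at −2.79 for HRDE-1 and −2.43 for CSR-1 (limma adjusted p = 0.00944 and 0.00359). Blmp-1, a transcription factor, had 2 CSR-1 reads against 19 in the input (−1.25), and lin-29, the factor of the switch from larva to adult, 1 against 14 (−1.11). Cut-1, blmp-1 and lin-29 stayed under 1 RPKM in both CSR-1 libraries, so for them too the filter favoured a fall. Blmp-1, elt-1, lin-29 and mlt-10 were higher in HRDE-1 sRIP than in CSR-1 sRIP, at 1.49, 1.13, 1.05 and 1.04. In that comparison 43.7% of all genes tested were called higher. For cut-1, blmp-1 and lin-29 the filter favoured this direction as well. Of the 3 basement membrane collagens, emb-9 and let-2 were listed at 0 and none was tested.

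**Figure D5:**
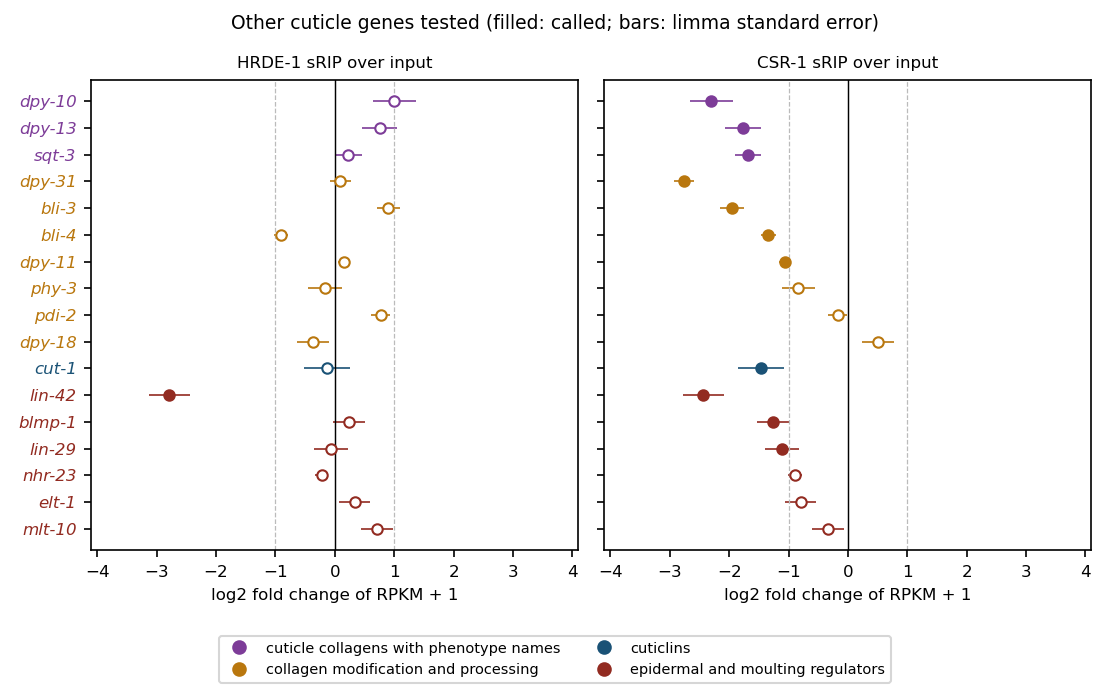
Log2 fold change of RPKM + 1 for the 17 tested cuticle genes outside the numbered collagens (rows, coloured by list), in HRDE-1 sRIP over input and CSR-1 sRIP over input, with limma standard errors as bars and called genes filled. In CSR-1 sRIP over input 11 genes are called, all lower, and in HRDE-1 sRIP over input lin-42 alone is called.

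Small RNA against marker genes of other tissues differed between the same libraries. Beside the counts that follow, 7.15% of all genes tested were called higher and 10.3% lower with HRDE-1, and 7.13% higher and 36.8% lower with CSR-1. Of 7 oocyte markers, 7 were tested, and 0 rose and 4 fell with HRDE-1 while 3 rose and 0 fell with CSR-1. Their summed level was 121 and 109 RPKM in HRDE-1 sRIP, 415 and 452 in CSR-1 sRIP and 215 and 227 in the input. Of 8 sperm markers 4 were tested, and 0 rose and 2 fell with HRDE-1, gsp-3 and ssp-16, while all 4 fell with CSR-1. Their sums were 57.6 and 61.3 RPKM in HRDE-1 sRIP, 5.69 and 6.45 in CSR-1 sRIP and 56.3 and 49.2 in the input. Most of this was spe-41, with 50.2 and 57.4 RPKM in HRDE-1 sRIP, 4.36 and 5.65 in CSR-1 sRIP and 38.7 and 40.1 in the input. Gsp-3 passed the filter on low values through the input alone, which fixed the direction of both its calls. Fer-1 and ssp-16 stayed under 1 RPKM in both CSR-1 libraries, so the filter favoured their fall there. Of 7 neuronal markers 6 were tested, and 2 rose with HRDE-1 and 4 fell with CSR-1, with sums of 180.0 and 175 RPKM in HRDE-1 sRIP, 48.3 and 47.1 in CSR-1 sRIP and 96.8 and 98.2 in the input. The 7 epidermal markers, of which 2 were tested and 1 fell with CSR-1, summed to 45.8 and 46.3 RPKM in HRDE-1 sRIP, 26.3 and 28.5 in CSR-1 sRIP and 52.6 and 54.04 in the input, with dpy-7 and rol-6 at 0. Nearly all of this was nhr-23, with 43.3 and 44.8 RPKM in HRDE-1 sRIP, 26.1 and 28.5 in CSR-1 sRIP and 50.9 and 52.0 in the input. The neuronal unc-64 and the epidermal lin-29 fell with CSR-1 and stayed under 1 RPKM in both of its libraries. For them too the filter favoured that direction.

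Intestinal markers, of which 5 of 7 were tested, 3 fell with HRDE-1 and 0 with CSR-1, summed to 0.836 and 0.6002 RPKM in HRDE-1 sRIP, 13.7 and 9.40 in CSR-1 sRIP and 7.90 and 7.59 in the input. Muscle markers, of which 2 of 5 were tested and 1 fell with each precipitate, summed to 2.33 and 2.39 RPKM in HRDE-1 sRIP, 3.54 and 2.74 in CSR-1 sRIP and 4.37 and 4.37 in the input. The intestinal genes called lower with HRDE-1, asp-1, lys-4 and vit-5, stayed under 1 RPKM in both HRDE-1 libraries, as did the muscle gene act-4. Unc-54, the muscle gene called lower with CSR-1, stayed under 1 RPKM in both CSR-1 libraries. For all these calls the filter on low values favoured a fall. The part of the differences between marker genes in the collagen result was not tested. Oma-1, whose fragment the strain carries in Cer3, had 26.6 and 28.8 RPKM in HRDE-1 sRIP, 30.2 and 32.8 RPKM in CSR-1 sRIP and 33.1 and 30.3 RPKM in the input, and was not called in any of the 3 comparisons.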

How the data were processed

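The deposited RPKM values of 6 small RNA libraries were used, as calculated by the authors for each gene model. Per the labels' protocols, small RNA was treated with a phosphatase and a kinase and ligated to linkers. Bowtie 1.2.3 was among the tools, per the submitters' processing notes. For the build, the strand, any length filter and reads with several matches, the setting is not given in the sources used here. A second table of 45 columns, whose names the labels do not tie to samples, was not used.

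Library totals, and 1 whole length per gene model, were deduced from the steps of the values, and all 80624 values above 0 then came out as whole reads (100%, tolerance 1e-08). A length is the shortest that fits, so this is a weak check, and 469 lengths were raised to a multiple because they were under 0.6 of every annotated length. Read numbers, ratios, intervals and floors rest on these deductions, while RPKM and fold changes do not. Of rows that share a symbol, the row with the highest mean was kept. Genes with at least 1 RPKM in 2 or more libraries were fitted with limma 3.58.1 (R 4.3.3) on log2(RPKM + 1) with a trended prior, 1 mean per group and Benjamini-Hochberg adjustment over all 10908 genes. The test was two-sided. On this scale, changes of weakly covered genes come out too small. The input pair entered as its mean, since it differed by no more than sampling noise, which leaves 2 residual degrees of freedom and assumes for the input the spread of the precipitates. Ratios of pooled reads have exact 95% intervals. Bounds against a group at 0 use a floor of 3 pooled reads and leave out the counting error of the other group's reads.

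All 158 collagen symbols were found in the Ensembl 115 annotation of WBcel235 and 156 among RefSeq symbols. No sequence is shown, and the planned comparison of sequences between collagen genes was not run. The collagen genes and the other gene lists were chosen with earlier results of these data known. Named were the 8 collagen genes with the highest mean, the called genes in HRDE-1 against input, the 8 called genes with the largest change in each other comparison, 6 genes of known stage or function, and the 3 called genes with the largest change per other list and comparison. The fits were tested on simulated data. Alternatives were the pseudocount (0.1), the filter, 2 input samples, the replicate block, each library left out, 2 other scalings, no trend, voom on deduced reads and every row kept. Leaving out a library with 2 input samples was added after seeing the data.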

Additional observations from a re-analysis of the deposited data

How the results depend on the processing

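Depth is a limit, since 8 of the 20 calls of lower collagen small RNA with CSR-1 rested on at most 3 CSR-1 reads. Over all alternatives run, no collagen gene was called higher with CSR-1 than in the input, or lower with HRDE-1 than with CSR-1. With each library left out, CSR-1 against input gave 14 to 22 collagen genes lower, HRDE-1 against CSR-1 gave 20 to 24 higher, and HRDE-1 against input gave 0 to 4 higher. Leaving out a CSR-1 or an HRDE-1 library leaves 1 residual degree of freedom. The lowest counts in HRDE-1 against input arose without a CSR-1 library. Without a filter, 100 collagen genes were tested and 16 were lower with CSR-1, beside 3578 of all 16433 genes tested there. The median log2 fold change in CSR-1 against input was then −0.31 for the collagen genes and −0.26 over all genes. In HRDE-1 against input, 4 collagen genes were higher with library medians centred. There 1 collagen gene, col-53, was lower with 2 input samples, with voom, with the replicate block, and, with 2 input samples, without HRDE-1 replicate 1, CSR-1 replicate 1 or CSR-1 replicate 2. The cause of these changes was not tested.

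Samples with the same replicate number did not deviate together (correlations 0.0333, 0.0233 and 0.00434 between groups), although their titles share a code prefix that the labels do not explain. They were not treated as pairs, and the replicate block, fitted with 2 input samples, gave 19 collagen genes lower with CSR-1 and 24 higher in HRDE-1 against CSR-1.

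Some log2 fold changes that were not called changed sign. In HRDE-1 against input, with library medians centred, col-71 stood at 0.25, col-111 at 0.10, col-157 at 0.34, col-45 at 0.34, col-154 at 0.26, col-155 at 0.30, cut-1 at 0.25, lin-29 at 0.33 and oma-1 at 0.20. With each library's median ratio to input scaled to 1, col-71 stood at 0.025, col-157 at 0.12, col-45 at 0.11, col-154 at 0.029, col-155 at 0.072 and lin-29 at 0.026. With a library left out, col-157 lay between −0.15 and 0.066, col-45 between −0.20 and 0.12, col-97 between −0.081 and 0.27, col-2 between −0.10 and 0.55, dpy-31 between −0.017 and 0.21, cut-1 between −0.48 and 0.21 and lin-29 between −0.32 and 0.21. With 2 input samples and HRDE-1 replicate 1 left out, col-157 was at 0.068. With 2 input samples and HRDE-1 replicate 2 left out, col-45 was at 0.00862, col-2 at −0.076, dpy-31 at −0.015, cut-1 at 0.23 and lin-29 at 0.21. In CSR-1 against input, oma-1 was at 0.45 with library medians centred, at 0.28 with the ratio scaling, at 0.049 without CSR-1 replicate 1 with 2 input samples, and between −0.071 and 0.053 with a library left out.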
